A study of Mus musculus with 6 samples.

Results

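The 5 antigen receptor loci of the mouse genome were examined in a list of DNA methylation peaks from cartilage cells. They are the immunoglobulin complexes Igk (kappa light chain), Igh (heavy chain) and Igl (lambda light chain), and the T cell receptor complexes Tcra, which also holds the delta chain genes, and Tcrb. A peak belonged to a locus when its midpoint fell between the ends of the complex, chr6:67555000-70727000 for Igk, chr12:113258000-116010000 for Igh, chr16:19026000-19261000 for Igl, chr14:52427000-54225000 for Tcra and chr6:40891000-41559000 for Tcrb. These intervals held 300 of the 84111 peaks analysed: 122 in Igk, 92 in Tcra, 61 in Igh, 16 in Tcrb and 9 in Igl. Flanks of equal length on both sides of each locus, used for comparison, held 998 peaks.

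In MBD-seq, DNA fragments that carry methylated CpG are pulled down with MBD2, a protein that binds them, and sequenced. The assay was run on 6 samples of primary cultured chondrocytes, the cells of cartilage, from the knee joints of mice at postnatal days 3 to 5. Of these, 3 came from control mice labelled as carrying a floxed Dnmt1 allele (Dnmt1 flox, copies not given) and 3 from conditional knockout mice (cKO; Prx1-Cre;Dnmt1 flox/flox), in which a Cre driven by the Prx1 promoter, active in limb mesenchyme, recombines Dnmt1. Dnmt1 is the enzyme that copies CpG methylation onto newly made DNA strands. The stated question was what Dnmt1 does to gene expression through DNA methylation, but the list gives 1 set of values per peak, from 3 merged datasets whose group is not named. Its submitters labelled the list as regions of DNA methylation mediated by Dnmt1. Whether peaks were selected by a comparison of groups is not known here, so a stretch without a peak cannot be read as unmethylated. No value can be assigned to control or cKO, no spread between samples can be given, and read depth per sample is not known. All that follows is therefore a description of 1 list, without tests, and the labelled cell type could not be checked against expressed markers.

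Antigen receptor genes are stored in pieces. Each locus carries an array of variable (V) segments, in some loci diversity (D) segments, then joining (J) segments and constant (C) genes. Developing B and T cells cut out the DNA between a V, a D and a J segment and join them, using the RAG1 and RAG2 proteins, and the joined gene then encodes one chain of an antibody or T cell receptor. In cells outside the lymphocyte lineages, such as chondrocytes, the segments stay in their germline order and the receptors are not made. At Igk, loss of CpG methylation in developing B cells is known to accompany rearrangement.

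Sequence was at hand only for promoters of the other genes that lie inside the loci, and 4 of these are shown because they frame what the peaks mark there. The 250 bases before a start given for the gene in RefSeq (GRCm38.p6) are printed 5′ to 3′ on the strand of the gene. Each CpG, the site that can be methylated and bound by MBD2, is in capitals.
1700074P13Rik, chr6:40940558-40940807, minus strand: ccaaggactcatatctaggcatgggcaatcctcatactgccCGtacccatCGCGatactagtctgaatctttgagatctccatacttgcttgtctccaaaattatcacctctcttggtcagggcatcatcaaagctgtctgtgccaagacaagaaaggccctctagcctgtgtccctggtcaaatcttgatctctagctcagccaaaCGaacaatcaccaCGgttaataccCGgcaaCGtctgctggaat
Prss1, chr6:41458680-41458929, plus strand: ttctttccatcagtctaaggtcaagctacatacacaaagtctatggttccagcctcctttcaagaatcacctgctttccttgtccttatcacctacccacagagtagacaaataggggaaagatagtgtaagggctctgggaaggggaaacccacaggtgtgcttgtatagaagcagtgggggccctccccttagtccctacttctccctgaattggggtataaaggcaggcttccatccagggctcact
Adam6a, chr12:113543658-113543907, plus strand: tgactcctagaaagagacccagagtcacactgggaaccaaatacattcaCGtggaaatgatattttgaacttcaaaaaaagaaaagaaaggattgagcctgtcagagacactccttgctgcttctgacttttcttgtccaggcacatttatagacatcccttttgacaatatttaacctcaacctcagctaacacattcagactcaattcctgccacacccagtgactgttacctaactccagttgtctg
Adam6b, chr12:113489315-113489564, plus strand: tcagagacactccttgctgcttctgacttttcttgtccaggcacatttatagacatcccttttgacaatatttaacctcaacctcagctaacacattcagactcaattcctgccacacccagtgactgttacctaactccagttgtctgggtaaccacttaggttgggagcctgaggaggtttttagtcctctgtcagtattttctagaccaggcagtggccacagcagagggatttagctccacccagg

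The promoter of 1700074P13Rik, a gene at the low-coordinate end of Tcrb, held 7 CpG and was the only one of 28 promoters inside the loci that a peak touched. That peak (chr6:40940435-40940641, fold 7.87) covered 84 of its 250 bases, those next to the start from which the window was drawn. RefSeq gives the whole gene as chr6:40920437-40941041, so this start and its window lie inside the gene body. Prss1, one of the trypsinogen genes embedded among the Trbv segments, held no CpG, and its nearest peak lay 16.3 kb away. Of the 28 promoters, 14 held no CpG at all and 20 held 0 or 1, with a median of 0.5 CpG against 6 over the 24388 promoters on covered sequence. The share touched by a peak, 3.57% (1 of 28), was near the 3.87% of all promoters. Among all promoters this share was 0.55% at 0 to 1 CpG, 10.4% at 5 to 9 CpG and 0.647% at 20 or more CpG. A match of letters to a peak is a position only, and no sequence of the V, D, J and C segments or of the peaks was used here.

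Adam6a and Adam6b, male-fertility genes of Igh, are near-copies. Adam6a lies between the D segments and the Ighv segments, and Adam6b among the D segments, between Ighd1-1 and Ighd3-1. Their promoters matched at 149 of 149 bases once Adam6b was moved by 101 bases. A peak lay 0.151 kb from the Adam6a promoter window, inside the gene (chr12:113544058-113544331, fold 11.3, 82 reads), and none lay within 1 kb of Adam6b. Reads from such copies can be assigned to either one, so the difference between the 2 genes is uncertain.

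The loci differed in how densely they were marked. Peaks per Mb numbered 51.2 in Tcra, 38.5 in Igk, 38.3 in Igl, 23.95 in Tcrb and 22.2 in Igh, against 43.0 over all covered chromosomes. Of the 5 loci, 4 were below that average and Tcra was above it. Together the 5 loci, 8.625 Mb in all, held 34.8 peaks per Mb. Peaks covered 2.61% of the bases of Tcra, 2.11% of Igk, 1.98% of Igl, 1.22% of Tcrb and 1.17% of Igh. Intervals for Igl and Tcrb are wide because they rest on 9 and 16 peaks.

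Set against flanks of its own length, Igk matched the mean of its surroundings. It had 122 peaks beside 78 in the low-coordinate and 154 in the high-coordinate flank, a density 1.05 times that of both flanks together (95% Wilson interval of the ratio 0.845 to 1.31). Such intervals treat peaks as independent and cover counting error only. Tcrb had 16 peaks between flanks of 9 and 22 and a ratio of 1.03 (0.57 to 1.87), which was 0.261 for peaks at or above the median fold and 1.6 with shorter flanks, of 0.5 times the length of the locus. Igl had 9 peaks beside 7 and 5, a ratio of 1.5 (0.648 to 3.47), so its excess was within counting error; for peaks at or above the median fold the ratio was 2.8.

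Igh and Tcra were poorer in peaks than their 2 flanks combined, and in both the gap lay mostly on one side. Igh had 61 peaks beside 354 in its low-coordinate flank, which adjoins the constant genes, and 64 in its high-coordinate flank, which adjoins the V segments. The ratio to both was 0.292 (0.223 to 0.382), but 0.953 to the high-coordinate flank alone. Tcra had 92 peaks, close to the 90 of its low-coordinate flank, whereas the flank beyond its constant gene Trac had 215, which gave a ratio of 0.603 (0.478 to 0.761). The dense flanks were also rich in genes: 21.8 protein-coding genes per Mb lay in the low flank of Igh and 41.7 in the high flank of Tcra, against 0.727 and 2.22 inside these loci. The low flank of Tcra had 32.8 protein-coding genes per Mb and 50.1 peaks per Mb, against 43.0 peaks per Mb over all covered chromosomes. The part of gene content in these differences was not tested.

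**Figure D1:**
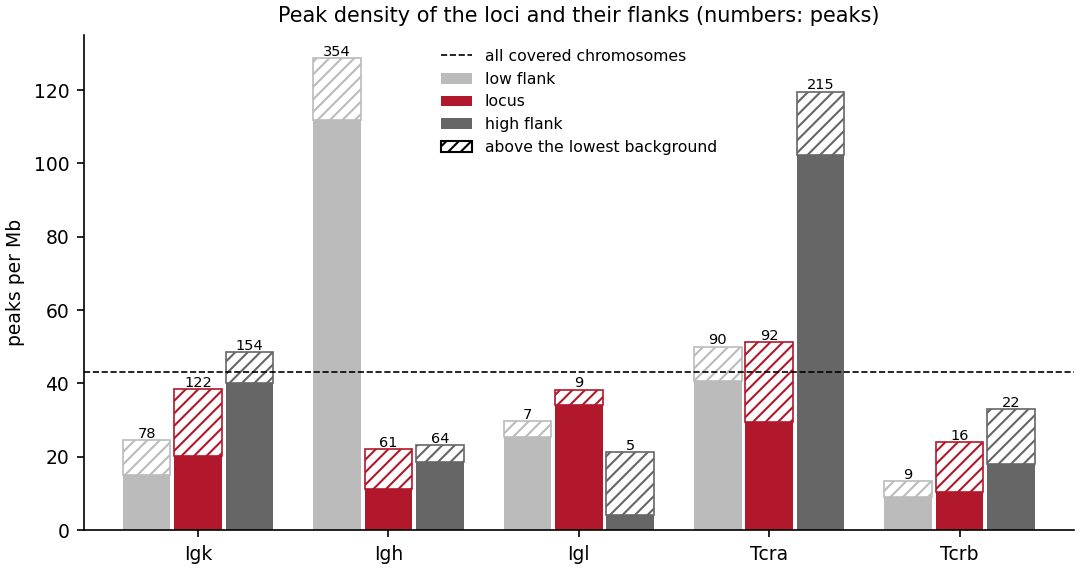
Peaks per Mb (vertical axis) in each locus (red) and its low-coordinate and high-coordinate flanks of equal length (light and dark grey), with solid bars for peaks at the lowest background and hatched bars for peaks above it; the numbers are peak counts and the dashed line is the average of 43.0 peaks per Mb. The low flank of Igh (354 peaks) and the high flank of Tcra (215 peaks) tower over their loci, which hold 61 and 92.

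The fold of the peaks inside the loci was ordinary, but their reads and widths were larger at the median. The median peak of the loci had 188.5 reads and 489 bp. It had 127 reads and 415 bp over all covered chromosomes, and 133 reads and 435 bp in the flanks. The fold enrichment given by the authors' peak caller had a median of 14.2 over the 300 peaks, ranging from 2.44 to 37.4. Its median was 13.2 over the whole list and 15.2 in the flanks. A fold of at least 20 was reached by 93 peaks (31.0%), near the 28.9% of the whole list. By locus, the median fold was 27.1 in Igl, 15.2 in Igh, 14.7 in Tcra, 14.2 in Igk and 7.39 in Tcrb. Igl and Tcrb lay at opposite ends, with 7 of 9 peaks at a fold of at least 20 in Igl and 3 of 16 in Tcrb. The flanks of Tcrb had higher medians than the locus, 19.99 and 20.3, and those of Igl lower ones, 16.7 and 6.42.

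The background beneath the peaks differed more from the list as a whole than the fold did. The fold of a peak compares its reads with a background, and both can be recovered from the fold and the p-value of the peak. MACS2 uses a floor for this background and raises it where the reads it takes as background are dense around a peak. Whether those reads came from a control library or from the merged datasets themselves is not known here. Most peaks of the list had the same lowest value, 6.37 reads. A background above this value was found in 137 of the 300 peaks (45.7%), against 25.0% of the whole list and 18.2% in the flanks. The share was 56.3% in Tcrb (9 of 16), 49.2% in Igh (30 of 61), 47.5% in Igk (58 of 122) and 42.4% in Tcra (39 of 92). Each of these 4 exceeded both of its own flanks, which had 33.3% and 45.5% for Tcrb, 12.99% and 20.3% for Igh, 38.5% and 17.5% for Igk, and 18.9% and 14.4% for Tcra. Wilson intervals of locus and flanks did not overlap for Igh and Tcra (37.1% to 61.4% and 32.8% to 52.6% for the loci). For Tcrb and for the low flank of Igk they overlapped. These intervals treat peaks as independent, which peaks standing close together may not be. In Tcra 21 of the 92 peaks stood in 4 runs of at least 4 peaks with gaps of at most 5 kb. With peaks within 500 bp merged, the share was 35.9% in Tcra and 46.4% in Igh. The intervals are therefore a description of counts and not a test. Igl went the other way, with 1 of 9 peaks (11.1%).

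Regions poor in genes and other gene arrays were measured in the same way. Igk and Igl hold no protein-coding gene and Igh 2, whereas Tcrb holds 13, or 19.5 per Mb. In the 233 windows of 1 Mb without a protein-coding gene, 51.9% of peaks were above the lowest background, with a median of 22 peaks per window (quartiles 17 and 29). In the 190 windows with at least 20 such genes the share above it was 14.9%, with a median of 67.5 peaks. Arrays of olfactory receptor genes (Olfr), which like V segments are long tandem families used in one specialised cell type, had 31.5 peaks per Mb over 16 arrays, 46.9% of them above the lowest background. Arrays of the pheromone receptor genes Vmn1r and Vmn2r had 38.0 and 34.4 peaks per Mb, with 43.7% and 41.7% above it. The 5 loci together, at 34.8 peaks per Mb and 45.7%, fell inside the range of these 3 families. Taken singly they did not: every locus lay outside the range of densities, from 22.2 in Igh to 51.2 in Tcra. Only Tcra, at 42.4%, lay inside the range of shares. Single Olfr arrays had from 20.6 to 79.8 peaks per Mb.

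**Figure D2:**
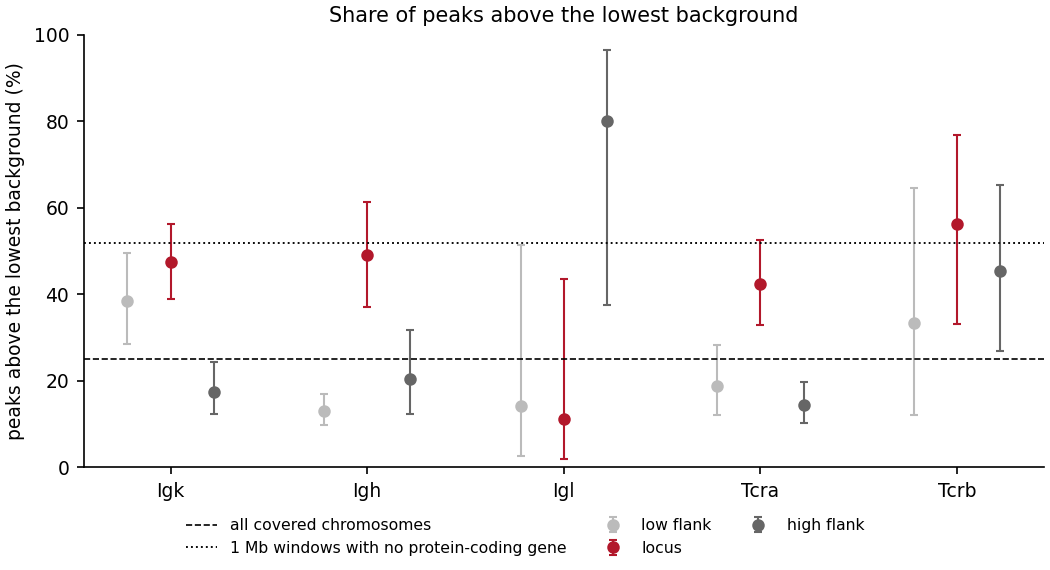
Percentage of peaks above the lowest background (vertical axis) in each locus (red) and its flanks (grey), as points with 95% Wilson intervals that cover counting error only. Igk, Igh, Tcra and Tcrb lie between 42.4% and 56.3%, above the dashed line for all covered chromosomes (25.0%), while Igl lies at 11.1% on 9 peaks.

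Split by background, the 5 loci together had fewer peaks per Mb than the flanks at the lowest background and more above it, and Igl went the other way. Peaks at the lowest background numbered 18.9 per Mb in the 5 loci, 47.3 in the flanks and 32.3 over the chromosomes. Peaks above it numbered 15.9 per Mb in the loci, 10.6 in the flanks and 10.7 over the chromosomes. In Igh the ratio to the flanks was 0.173 at the lowest background and 1.02 above it. In Tcra the 2 values were 0.412 and 1.63, and in Igk 0.731 and 2.04, so which kind of peak was counted decided whether Igk and Tcra were poorer or richer than their flanks. In Tcrb they were 0.778 and 1.38. In Igl, on 9 peaks, they were 2.29 and 0.4.

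Peaks rarely lay on the gene segments themselves. The RefSeq table placed 651 V, D, J and C segments in the 5 loci, with a median length of 435 bp, and 12 of them (1.84%) overlapped a peak. Other genes of at most 1 kb, with a median length of 441 bp, overlapped one in 16.0% of cases, Olfr genes in 5.66% and Vmn1r genes in 1.19%. Within 1 kb of a peak lay 43 segments (6.61%), against 21.9% of the other short genes, 7.59% of Olfr and 1.79% of Vmn1r genes. By locus this share was 11.9% in Tcra (24 of 202), 11.3% in Tcrb (6 of 53), 5.36% in Igk (9 of 168), 1.85% in Igh (4 of 216) and 0 of 12 in Igl. Of the 6 Tcrb segments, 5 lay by a single peak of 103 bp and 49 reads. The order of the loci changed with the threshold: at a −log10 q of at least 100 the share was 5.45% in Tcra, 5.36% in Igk and 1.89% in Tcrb, and at folds at or above the median it was 0% in Tcrb. For 12 segments a count of 0 still allows a share of up to 24.2% (upper Wilson limit).

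The stretches within 1 kb of a segment made up 16.8% of the loci and held 32 of the 300 peak midpoints (10.7%), or 22.1 peaks per Mb against 37.4 in the rest. Igh had 7.99 peaks per Mb near segments and 25.3 away from them, Igk 19.5 and 41.3, and Tcra 45.3 and 53.0. All 9 peaks of Igl lay outside these stretches. Segment bases were covered by peaks at 0.235% in Igh, 0.242% in Igk and 1.62% in Tcra, while the other bases were covered at 1.20%, 2.16% and 2.66%. The median distance from a peak to the nearest segment was 6.10 kb, and 248 of the 300 peaks (82.7%) overlapped no gene of the table apart from the complexes themselves, against 38.5% of peaks on all chromosomes.

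**Figure D3:**
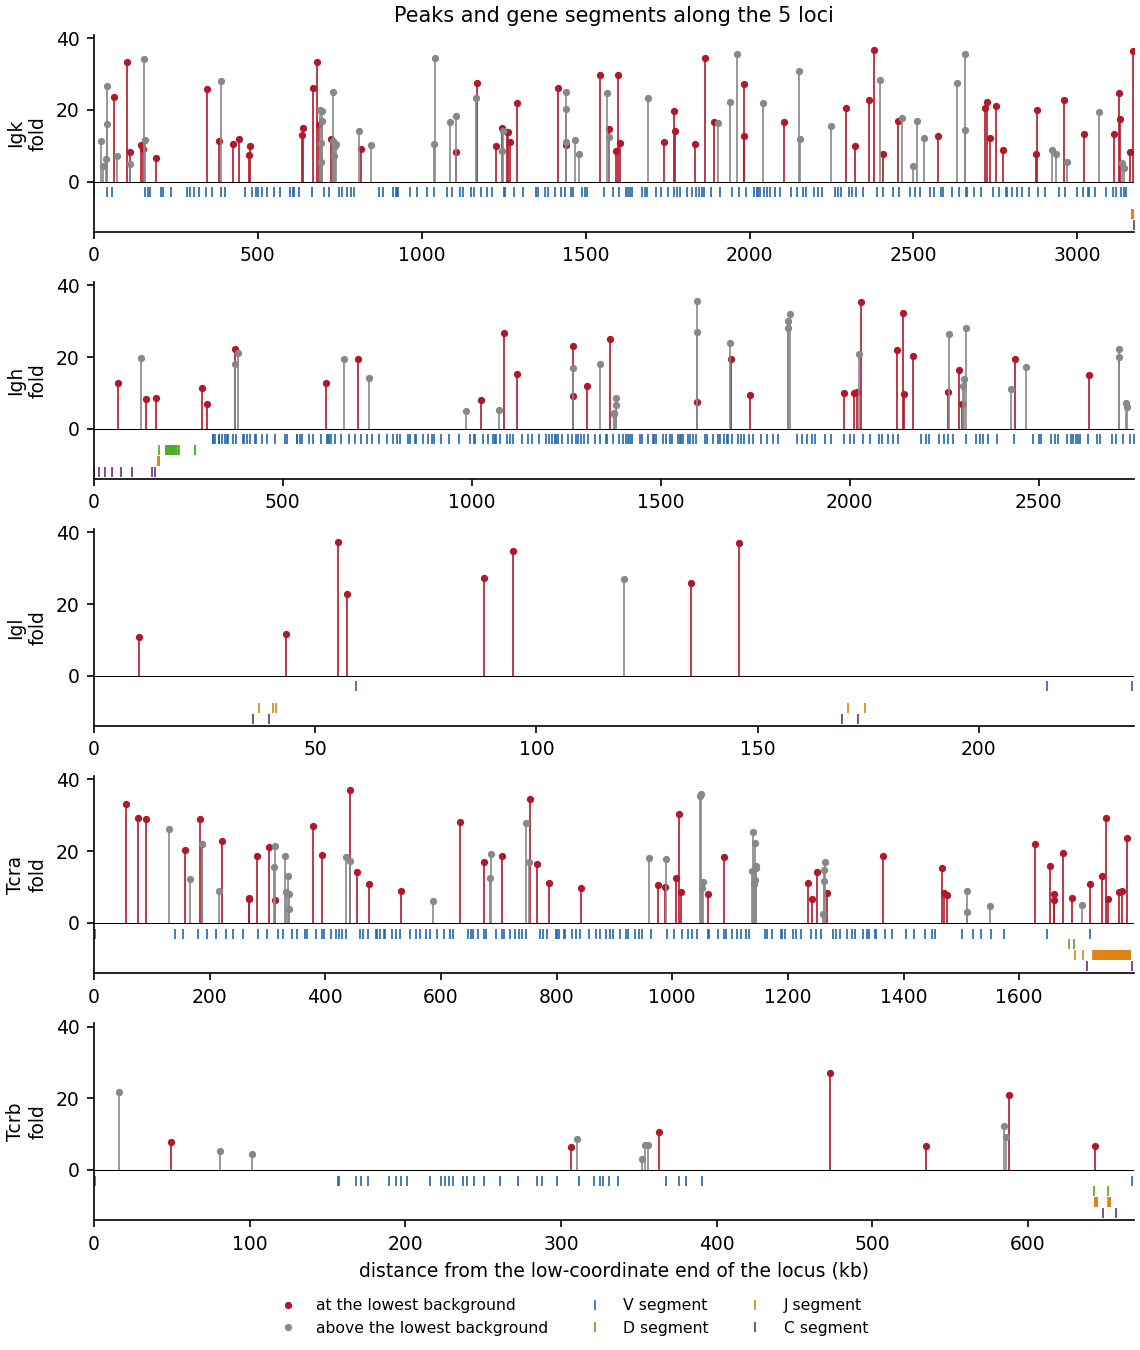
Each peak as a stem at its distance from the low-coordinate end of the locus (horizontal axis, kb), with its fold as height, red at and grey above the lowest background; ticks below mark V, D, J and C segments. Peaks lie mostly between the ticks, and Tcrb has none over a stretch of 204 kb that carries 23 Trbv segments.

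In the V arrays, 8 of 520 V segments overlapped a peak (1.54%) and 24 had one within 1 kb (4.62%). The share within 1 kb was 4.63% for intact V segments (17 of 367) and 4.58% for V pseudogenes (7 of 153), with Wilson intervals of 2.91% to 7.29% and 2.23% to 9.14% that overlapped. In Igk the 2 segments overlapped were pseudogenes, Igkv1-136 (chr6:67593499-67594067, fold 26.6) and Igkv15-97 (chr6:68591817-68592456, fold 10.6). No Ighv and no Trbv segment was overlapped. The 6 overlapped V segments of Tcra were Trav15d-2-dv6d-2, Trav9n-1, Trav15n-2, Trav9-1, Trav9-4 and Trdv5, with folds from 8.004 to 17.0, and all 6 peaks were at the lowest background. Of these, 3 were members of the Trav9 family.

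Among V segments within 1 kb of a peak, Igkv4-61 had the highest fold, 34.5 at a distance of 0.645 kb. Igkv9-124 had a peak of fold 28.0 at 0.121 kb, and Trav15n-1 one of fold 27.8 at 0.443 kb. In Igh the nearest such peaks were at Ighv8-10, a pseudogene (fold 26.4, 0.169 kb), Ighv1-10, also a pseudogene (fold 17.9, 0.543 kb), and Ighv10-3 (fold 16.9, 0.654 kb). The Ighv1 family, the largest with 92 segments, had 1 member within 1 kb of a peak, and the Igkv4 family, with 33, had 1. In Tcrb 1 of 35 Trbv segments had a peak within 1 kb, Trbv21 (fold 8.59 at 0.816 kb, 492 reads over a background of 56.4).

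Long stretches of V segments held no peak at all. The longest in Igh ran for 255 kb, chr12:113985485-114240951, and contained 17 Ighv segments. In Tcrb the longest was 204 kb, chr6:40992971-41197181, with 23 of the 35 Trbv segments. Those of Igk and Tcra were 193 kb with 9 Igkv segments and 117 kb with 12 Trav segments. In Igl the 88.9 kb at the high-coordinate end, which carry Iglv2, Iglv3 and 2 J and 2 C segments, held none of the 9 peaks. Flanks held stretches of like length, from 75.7 to 259 kb in those of Igk, Igh, Tcra and Tcrb.

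The zones that hold the D, J and C segments were also set beside the rest of each locus. From the first to the last such segment they spanned 399 kb in Igk, Igh, Tcra and Tcrb together and held 15 peaks. Of these, 2 (13.3%) were above the lowest background, whereas 134 of the 276 peaks in the rest of these 4 loci were (48.6%). The zones were compared after the peaks had been seen, and peaks in a zone are few, so this is a description.

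In Igk the single peak of this zone was among the highest of the locus. It lay at chr6:70724674-70725166, 0.751 kb past Igkj5 and before Igkc, in the intron between the J segments and the constant gene, with 267 reads over the lowest background and a fold of 36.4. This intron is known to hold the intronic kappa enhancer, which B cells need for efficient kappa rearrangement; whether the peak covers it was not tested, as no enhancer position was used. Only the peak at chr6:69934159-69934678, 8.51 kb from Igkv12-38, was higher in Igk, at 36.6.

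In Tcra the Traj array, 60 joining segments over 63.8 kb, held 6 peaks, or 94.0 per Mb, all at the lowest background. Their folds ran from 6.51 to 29.3. Traj6 (chr14:54212610-54213069, fold 23.7) and Traj21 (fold 8.68) were overlapped, and peaks lay 0.125 kb from Traj41 (fold 29.3), 0.044 kb from Traj48 (fold 13.2), 0.09 kb from Traj39 (fold 6.51) and 0.414 kb from Traj15 (fold 8.95). Of the 53 intact J segments of this locus, 12 (22.6%) lay within 1 kb of a peak, against 9.24% of its intact V segments. The share for other genes of at most 1 kb was 21.9%. J segments stand so close together that 1 peak can lie within 1 kb of several. By overlap alone the order was the reverse, with 2 of 53 J segments (3.77%) and 6 of 119 V segments (5.04%). The wider zone from the D segments to Trac had 81.3 peaks per Mb and the rest of Tcra 49.2. The peak with the most reads in Tcra, 598 over a background of 119.5 and so with a fold of 4.97, lay in this zone, 0.343 kb from the delta segment Trdj2.

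In Tcrb the only peak of the zone overlapped Trbj1-2 (chr6:41533926-41534028), with 49 reads, a width of 103 bp and a fold of 6.78. Trbd1, within 1 kb of it, was the only D segment of the 5 loci that near a peak. Neither Trbc1 nor Trbc2, the constant genes, was overlapped.

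Igh was sparse in this zone, with 4 peaks over 269 kb, or 14.9 per Mb. None of its 20 D segments and 4 J segments lay within 5 kb of a peak. Of its 8 constant genes, only Ighm, which encodes the constant part of IgM, was overlapped, by a peak of 216 bp with 62 reads and a fold of 8.55 (chr12:113422090-113422305). Of the other peaks, 2 overlapped the pseudogenes Gm9134 and Gm9136, with folds of 19.7 and 8.28, and 1 lay 4.61 kb from Ighg1, a constant gene of IgG, with a fold of 12.8.

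Tcra carries near-copies of its V array, which RefSeq names with a d (40 segments) or an n (34 segments) beside those with neither letter. For 34 segments both a d and an n copy exist, at a median distance of 311 kb. Of the 10 peaks beside these segments in the d array, 7 had a partner in the n array at the same offset from the matching segment, to within 15 bp, and the same 7 were the matched ones of the 10 peaks in the n array. Only 0.699% of the n array lies within 100 bp of a peak midpoint. The match was 7 of 10 at every tolerance tried, from 100 bp to 2 kb.

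The partners were also alike in height. The peak 7130 bp from the start of Trav15d-1-dv6d-1 had 273 reads and a fold of 37.2, the highest of Tcra, and its partner at Trav15n-1 had 254 reads and a fold of 34.6. At Trav4d-3 and Trav4n-3, where the peaks touch the pseudogenes Rps19-ps2 and Rps19-ps1, the folds were 10.7 and 11.0. At Trav15d-2-dv6d-2 and Trav15n-2 they were 8.95 and 9.77, on the segments themselves. The pair that differed most was at Trav15d-1-dv6d-1 and Trav15n-1 on the low-coordinate side, with 18.4 and 27.8, where the peaks touch Gm6740 and Gm6755. Near-identical copies share reads, and how reads with several matches were placed is not given in the sources used here, so the 2 copies may not be independent measurements.

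**Figure D4:**
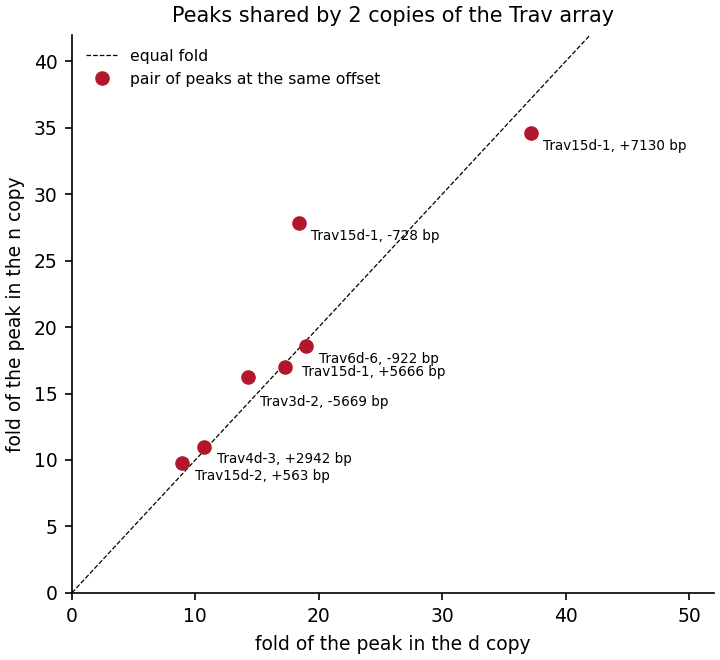
Fold of each of the 7 peaks in the d copy of the Trav array (horizontal axis) against the fold of its partner in the n copy (vertical axis), labelled with the nearest d segment and the offset of the peak from its start. All but the pair at 18.4 and 27.8 lie near the dashed line of equal fold.

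The array without a letter matched less closely. Here 38 segments had a copy in both, more than between d and n, and 22 peaks of the d array lay beside them. Of these, 9 had a partner within 1 kb and 1 within 100 bp, and some of the 9 shared a partner. Of the array without a letter, 11.8% lies within 1 kb of a peak midpoint and 1.43% within 100 bp. Starting from that array, 7 of 27 peaks had a partner in the d array within 1 kb. The peak with a partner within 100 bp lay beside Trav6d-6, at a distance of 0.725 kb. It was present in all 3 arrays, with folds of 18.99 at Trav6d-6, 18.6 at Trav6n-6 and 18.4 at Trav6-6. The peak on Trav9n-1 (fold 17.0) had a partner on Trav9-1 (fold 8.004) at an offset that differed by 5.5 bp.

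Some peaks stood in tight runs between segments. With gaps of at most 5 kb, 9 runs of at least 4 peaks were found, 4 in Tcra, 3 in Igk and 2 in Igh. Runs were not counted in the flanks or the rest of the list, so whether they are particular to the loci was not tested. The run with the most peaks held 7 over 8.32 kb beyond Trav15-1-dv6-1 (chr14:53563759-53572078), all above the lowest background, with folds from 10.9 to 25.3. It contained the widest peak of the 5 loci, 2034 bp. In Igk a run of 6 peaks near Igkv14-111 (chr6:68242359-68252388), each 4.02 to 13.7 kb from a segment, reached a background of 106 reads. A run of 4 near Ighv1-13 had the highest background of Igh, 108 reads, under a peak of 487 reads and a fold of 4.48.

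The highest peaks of each locus lay between segments, with the exceptions named above. In Igh they were at chr12:114853737-114854285, 2.25 kb from Ighv1-34 (fold 35.8, 320 reads), and inside the lncRNA gene Gm30948 (fold 35.4, 260 reads). In Tcra, below the peak of fold 37.2 at Trav15d-1-dv6d-1, came 2 neighbouring peaks beyond Trav8-1 with folds of 35.9 and 35.3. In Igl they were 3.56 kb from Iglv1 (fold 37.4, the highest of all 300 peaks) and at chr16:19171579-19172109 (fold 37.2), 22.9 kb from the nearest segment. Tcrb reached 27.1 at chr6:41363569-41364005, 81.6 kb from its nearest segment, Trbv30.

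Genes of other kinds inside the loci were marked in a minority of cases. Of 19 protein-coding genes 2 overlapped a peak, Adam6a and 1700074P13Rik, against 65.1% of protein-coding genes on covered sequence. The 19 genes are short, at most 20605 bp, with a median length of 18638 bp in that background. None of the trypsinogen and related serine protease genes of Tcrb, which include Prss1, Prss2, Prss3, Prss58, Try4, Try5 and Try10, was overlapped, nor were the olfactory receptor genes Olfr1507, Olfr1508 and Olfr1509 in Tcra. Pseudogenes overlapped a peak in 16 of 64 cases against 30.8% of all pseudogenes, and lncRNA genes in 6 of 14 against 36.4%. The lncRNA genes Gm30392 and Gm30275, which span the delta segments Trdv2-1 and Trdv4 of Tcra, held 6 and 5 peaks, and Gm30948 in Igh held 4.

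A further T cell receptor complex, Tcrg on chromosome 13, was set beside the 5 loci as a like locus outside the rule. It held 2 peaks in 179 kb, 11.2 per Mb, beside 6 and 5 in its flanks. Both were above the lowest background, with folds of 14.8 and 12.6, and none of its 15 segments lay within 1 kb of a peak.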

How the data were processed

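MBD-seq of 3 control and 3 cKO chondrocyte cultures was represented by 1 deposited peak list in narrowPeak layout. Per the submitters' processing notes, fastp, Bowtie2 and MACS2 and the builds mm10 and GRCm38 were used, with no versions given; per the peak names, 3 datasets were merged with Samtools. The fold of each deposited peak is a ratio to the background used in calling. Its significance was deposited as −log10 p and −log10 q. A deposited score equals 10 times −log10 q without its decimals. The lowest −log10 q was 20.004. The list ends in an incomplete line on chromosome 6, left out here, beyond both loci on that chromosome; no peak of chromosomes 7, 8, 9, X or Y is analysed here.

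Peaks were placed by midpoint with 1-based coordinates (Python 3.11.15, pandas 2.3.3, scipy 1.17.1). Pileup and background were solved from fold = (pileup + 1)/(background + 1) and the Poisson p; a pileup within 0.01 reads of a whole number counted as matched, which held for 99.97% of the list and for all 300 peaks of the loci. On simulated peaks the pileup was recovered in 100% of cases. A background over 0.1% above 6.37 reads counted as above the lowest. Genes, segments and promoters came from RefSeq tables of GRCm38.p6; locus bounds are those of the complexes in that table, widened to whole kb. Gene ends were widened by 1 kb; arrays of Olfr, Vmn1r and Vmn2r genes needed at least 10 members with gaps of at most 200 kb. Named peaks were the 3 of highest fold, the one of most reads and the widest per locus, peaks at D, J and C segments and other genes, the V segments of highest fold and the longest interval without a peak. Runs, D-J-C zones and V copies were added after the peaks had been seen, and members and lists were chosen with earlier results of these data known. The alternatives tried used a minimum −log10 q of 50 or 100, folds at or above the median, merging within 500 bp, placement by summit or overlap, shorter flanks, tighter bounds and windows of 0 or 5 kb. Files hold no counts per sample, so the planned test of control against cKO was not possible.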

Additional observations from a re-analysis of the deposited data

How the results depend on the processing

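No paired analysis was possible because peaks carry merged values that name no sample; no replicate could be left out, and the planned fits of control against cKO were not run. An alternative counted as moved when it left the 95% Wilson interval of the value. The density ratio to the flanks kept inside it in 41 of 50 cases. It moved for peaks at the lowest background only (Igk 0.731, Igh 0.173, Tcra 0.412), for peaks above it only (Igk 2.04, Igh 1.02, Igl 0.4, Tcra 1.63), for Igk at a −log10 q of at least 100 (1.37) and for Tcrb at folds at or above the median (0.261). The share above the lowest background kept inside in 16 of 20 cases. At a −log10 q of at least 100 it rose to 67.1% in Igk, 70% in Igh, 57.9% in Tcra and 77.8% in Tcrb. The flanks and the whole list were not measured at that cut, so whether the rise is particular to the loci was not tested. The share of segments near a peak follows the window by construction: overlap alone gave 1.190% (Igk), 0.463% (Igh), 3.96% (Tcra) and 1.89% (Tcrb), and 5 kb gave 21.4%, 10.6%, 42.6% and 22.6%, with 33.3% in Igl. Within 5 kb lay 39.2% of other genes of at most 1 kb, 19.7% of Olfr and 14.9% of Vmn1r genes. In Tcra the share of segments within 1 kb fell to 7.43% and 5.45% at a −log10 q of at least 50 and 100 and to 5.94% at folds at or above the median; in Tcrb to 1.89%, 1.89% and 0%. With peaks at the lowest background only it was 0.463% in Igh. Why other values moved was not tested. Both sets of peaks by background, and the tolerances for V copies, were added after seeing the data. Igl rests on 9 peaks and Tcrb on 16, which limits any order that includes them.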

Other observations

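The genes that make and use antigen receptors but lie outside the loci were also looked up, from a list of 33 of which 25 lie on covered sequence. A peak overlapped 18 of the 25 (72.0%), against 65.1% of all protein-coding genes, with a median length of 36.857 kb in the list and 18638 bp in that background. Of their 95 peaks, 15.8% were above the lowest background, a share below the 45.7% of the loci and the 25.0% of the whole list. It was near the 14.9% in windows of 1 Mb with at least 20 protein-coding genes. Among 9 recombination genes, Rag1, which encodes one of the 2 recombinase subunits, had 3 peaks, the highest with a fold of 37.3 (chr2:101643972-101644682), while its neighbour Rag2 had none. Prkdc, the DNA-dependent protein kinase of end joining, had 7 peaks over 205 kb, or 3.42 per 100 kb. Xrcc5, which encodes Ku80, had 11 over 87.5 kb, or 12.6 per 100 kb. The average over all covered chromosomes was 43.0 peaks per Mb. Dntt, the enzyme that adds bases at the joints, had 1 peak with a fold of 6.92.

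Among the 16 receptor signalling and lineage genes covered, Bcl11b, a T cell commitment factor, had the most peaks, 19 over 93.7 kb, with a highest fold of 44.7. Ebf1 had 14 and Pax5 had 10, both B cell factors. Tcf3, which encodes the E2A proteins, had 7 with a highest fold of 48.8, and Cd247, the zeta chain of the T cell receptor complex, had 7. These genes differ in length. Per 100 kb they had 28.6 peaks in Tcf3, 20.3 in Bcl11b, 7.68 in Cd247, 5.38 in Pax5 and 3.59 in Ebf1. Vpreb1 and Vpreb2, the surrogate light chain genes on the chromosome of Igl, each had 1 peak, with folds of 16.1 and 17.6. Cd79b, Igll1, Ptcra, Cd8b1 and Ptprc had none. Ptprc, the CD45 gene of white blood cells, is 113 kb long.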
